A study of Mus musculus with 8 samples.

Results

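The RANKL, RANK and OPG system was followed in 10 genes of the parietal bone, a flat membrane bone of the skull vault: Tnfsf11 (RANKL), Tnfrsf11a (RANK), Tnfrsf11b (OPG), Lgr4, Traf6, Fos, Nfatc1, Nfkb2, Relb and Prdm1. They were taken by symbol from a table of 27133 genes, and all 10 were among the 17028 genes that passed the filter on low counts and were tested. Poly(A) RNA came from C57BL/6J pups that received either an isotype control antibody (libraries 2, 3, 4 and 5) or an antibody that blocks CSF1R (libraries 7, 8, 9 and 10). Both groups were dosed transcranially on postnatal days 2, 4 and 6, then perfused, and the bone was taken on postnatal day 9. CSF1R is the receptor on monocytes, macrophages and osteoclasts for the growth factors CSF1 and IL-34, and the study used the antibody to deplete myeloid cells. The comparison asks how the bone transcriptome differs after that treatment. No gene was deleted in either group, and the labels do not say whether each library is 1 pup, so p-values here reflect the spread among the 8 libraries.

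RANKL is a membrane-bound or shed cytokine made by osteocytes, osteoblast-lineage stromal cells, chondrocytes and activated lymphocytes. It binds RANK on osteoclast precursors, which arise from the myeloid lineage and first need CSF1 to survive and to express RANK. OPG is a secreted decoy receptor that keeps RANKL from RANK, and LGR4 is a further receptor that binds RANKL and competes with RANK. Bound RANK recruits the adaptor TRAF6, which turns on the classical NF-kB and AP-1 (FOS) pathways, while NF-kB2 and RelB form the alternative NF-kB pathway. These signals converge on NFATc1, the master transcription factor of osteoclasts, which acts with calcium and calcineurin. PRDM1 (Blimp1) is a repressor that NFATc1 induces and that silences the brakes on osteoclast formation.

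Levels are given as CPM, the counts of a gene per 1 M counts of the library after TMM scaling. Each library held 57.5 M to 69.1 M counts. Low counts (1 to 10) were even in 82.8% to 84.7% of cases, the pattern of a table in which the mates of a pair are each counted, and the number of fragments is then lower than the totals. Isotype 3 and 4 stood apart, with a Spearman correlation across genes of 0.916 to 0.943 with the other 6 libraries, against 0.986 to 0.997 among those 6. In isotype 3 and 4, GC-rich transcripts stood high, and mitochondrially encoded transcripts took 0.847% and 0.855% of counts against 2.03% to 2.80% elsewhere. The members sorted by GC content in the same way. All 6 members with a transcript GC content below the median of tested genes (49.9%), namely Tnfsf11, Tnfrsf11a, Tnfrsf11b, Lgr4, Traf6 and Prdm1, had a mean 1.35- to 2.83-fold lower in isotype 3 and 4 than in isotype 2 and 5. All 4 members above it, namely Fos, Nfatc1, Nfkb2 and Relb, had a mean 1.11- to 1.58-fold higher there. For this reason each member's fold change is also given with isotype 2 and 5 only and, where it matters, with an offset for GC content and transcript length. The tissue label was met by the bone collagen genes Col1a1 (121489 ± 29920 CPM with isotype; SD, n = 4) and Col1a2 (110517 ± 27590 CPM), and by the osteocyte genes Dmp1 (2335 ± 1010 CPM) and Phex (551 ± 372 CPM). Csf1r, the gene of the blocked receptor, stood at 238, 549, 421 and 238 CPM (isotype 2 to 5) against 64.4, 61.4, 62.6 and 39.4 CPM (anti-CSF1R 7 to 10) (edgeR adjusted p = 0.0156), and the antibody's action on the protein is not measured by RNA.

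The promoter windows below belong to the 3 members whose groups did not overlap in CPM and whose fold changes were the largest in size. Each window is the 250 bases before the gene's start on its own strand, from RefSeq on GRCm38.p6, and the table held 7 of the 10 members. The letter patterns searched were, on both strands, the AP-1 site TGANTCA, the NFAT core GGAAA, the RUNX core TGTGGT, the core TGACG of the cAMP response element and the kappa B site. Capitals mark the matches. The Tnfsf11 window is chr14:78308044-78308293 (minus strand), that of Tnfrsf11a is chr1:105780473-105780722 (plus strand) and that of Prdm1 is chr10:44458749-44458998 (minus strand).
Tnfsf11: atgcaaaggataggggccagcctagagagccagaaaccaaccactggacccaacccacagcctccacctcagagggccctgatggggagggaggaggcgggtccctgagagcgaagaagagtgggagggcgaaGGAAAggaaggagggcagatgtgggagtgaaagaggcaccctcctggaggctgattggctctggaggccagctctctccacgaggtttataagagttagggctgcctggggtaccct
Tnfrsf11a: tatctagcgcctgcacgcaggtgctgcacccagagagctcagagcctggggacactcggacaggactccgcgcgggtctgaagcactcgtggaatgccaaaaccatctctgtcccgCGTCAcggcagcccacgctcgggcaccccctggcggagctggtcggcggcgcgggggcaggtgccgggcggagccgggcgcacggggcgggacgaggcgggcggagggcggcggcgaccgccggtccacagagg
Prdm1: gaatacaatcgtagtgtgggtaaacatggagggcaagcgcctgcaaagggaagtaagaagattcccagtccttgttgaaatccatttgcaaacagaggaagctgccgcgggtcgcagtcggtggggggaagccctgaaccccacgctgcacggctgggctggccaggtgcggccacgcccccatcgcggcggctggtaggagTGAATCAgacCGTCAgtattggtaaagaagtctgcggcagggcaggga
The Tnfsf11 window held 1 GGAAA, 117 bases before the start, a pattern that 55.6% of 32851 windows of this length hold. That of Tnfrsf11a held 1 TGACG on the opposite strand (printed as CGTCA), 134 bases before the start, a pattern of 17.8% of windows. In the Prdm1 window, TGANTCA lay 48 bases and TGACG, on the opposite strand, 38 bases before the start, and 6.75% of windows hold the former. The RUNX core (14.1% of windows) and the kappa B site (7.25%) had 0 matches in these 3 windows. A match is a run of letters and not a measured binding site, and no binding was measured here.

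Across the 10 genes, the receptor RANK and the transcription factor Nfatc1 fell with anti-CSF1R, and RANKL stood 3.86-fold higher in mean CPM. In the edgeR fit to all 8 libraries, 2 of 10 members passed as lower (0.822% of all tested genes did) and 0 of 10 passed as higher (0.0235% of all tested genes). At an unadjusted edgeR p under 0.05 the counts were 4 lower and 1 higher. Of all 17028 genes tested, 3041 had such a p in either direction. DESeq2 called 3 members lower (Tnfrsf11a, Nfatc1 and Prdm1), with 3.69% of genes called lower, and 1 higher (Tnfsf11), with 0.869% of genes. The limma-voom fit called Tnfrsf11a and Nfatc1 lower (2 members, against 0.787% of genes) and Tnfsf11 higher (1 member, against 0.0529%). With isotype 2 and 5 only, edgeR called 4 members lower (2.38% of genes) and 1 higher (0.679% of genes). With the GC and length offset it called 3 lower (1.84% of genes) and 1 higher (0.364% of genes). The libraries of the groups did not overlap in CPM for 4 members that were lower (8.34% of genes) and for 1 that was higher (6.61% of genes). The median log2 fold change was 0.0072 over the members and 0.03 over all genes tested.

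**Figure D1:**
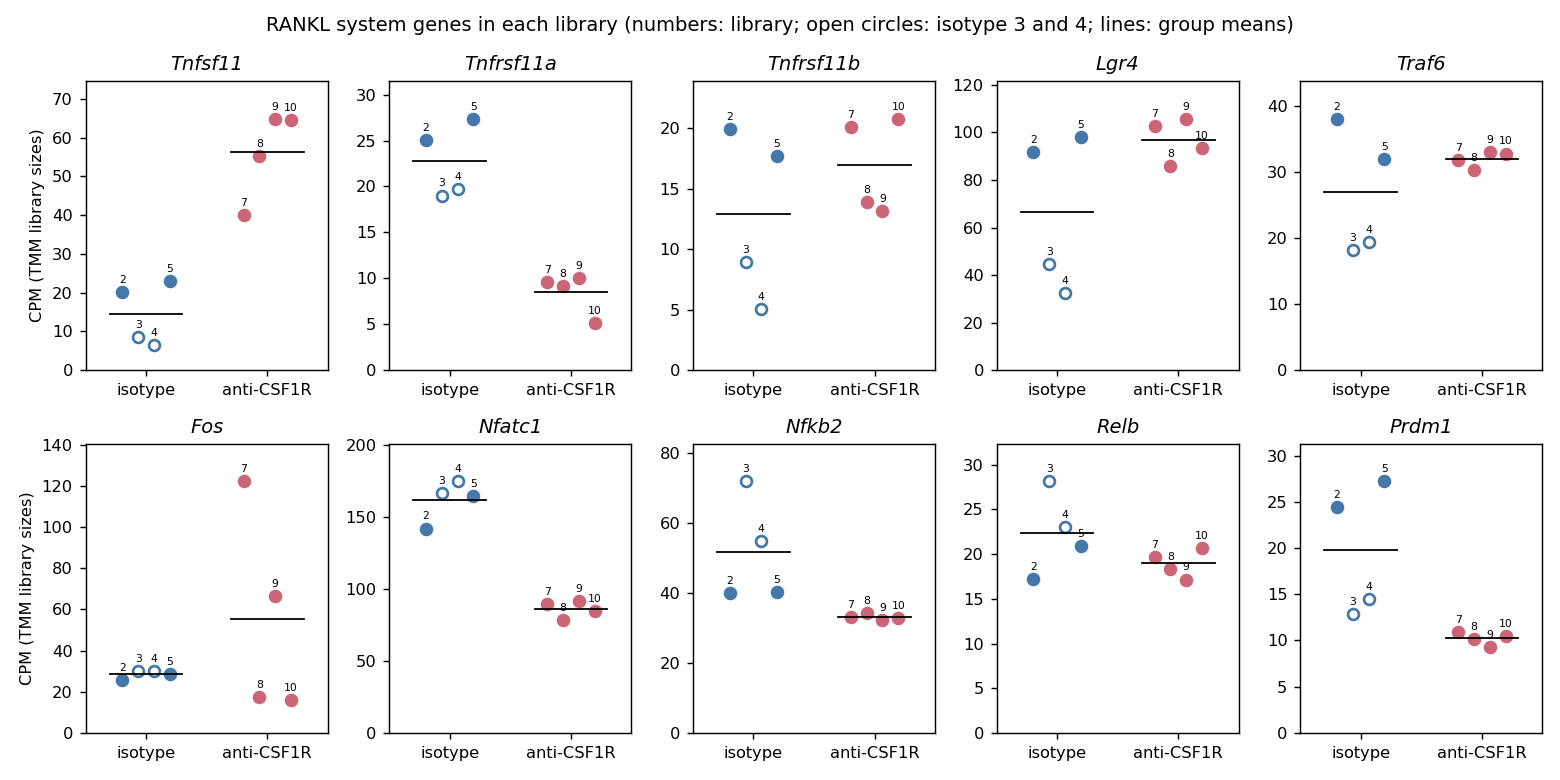
CPM (TMM library sizes) of the 10 genes in each library, isotype on the left and anti-CSF1R on the right of each panel, with library numbers, group means as lines and isotype 3 and 4 as open circles. The groups do not overlap for Tnfsf11, Tnfrsf11a, Nfatc1, Nfkb2 and Prdm1, and isotype 3 and 4 sit away from isotype 2 and 5 in several panels.

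On all 8 libraries, the largest fold change of the 10 genes was that of the ligand. With isotype 2 and 5 only, that of Tnfrsf11a was larger in size (log2 fold change -1.63 against 1.38). Tnfsf11 stood at 20.1, 8.63, 6.57 and 22.9 CPM (isotype 2 to 5) against 40.1, 55.2, 64.8 and 64.6 CPM (anti-CSF1R 7 to 10). Every anti-CSF1R library was above every isotype library, and the lowest values were those of isotype 3 and 4. The means were 14.6 ± 8.15 and 56.2 ± 11.6 CPM (SD, n = 4), a 3.86-fold difference that is 2.61-fold against isotype 2 and 5. The log2 fold change of 1.95 ± 0.40 (SE) did not pass over all genes in edgeR (adjusted p = 0.0710). Tnfsf11 rose in the fit with isotype 2 and 5 only (log2 fold change 1.38 ± 0.22, edgeR adjusted p = 0.0351). The offset for GC content and length also gave a call (1.84, edgeR adjusted p = 0.0133). It also passed in DESeq2 (1.93, adjusted p = 6.86e-05) and limma-voom (adjusted p = 0.0478), in a range of adjusted p from 6.86e-05 to 0.510 over 18 alternatives. The highest of these came with a skeletal muscle covariate, where the log2 fold change was 1.74.

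Markers of cells known to make RANKL were measured in the same libraries. Of the 8 osteocyte markers, 0 passed in edgeR in either direction (1 lower and 1 higher at an unadjusted p under 0.05, 0 in DESeq2 and 0 in limma-voom), and their summed level was 3307 to 6465 CPM with isotype and 4427 to 5601 CPM with anti-CSF1R. The 8 markers of RANKL-bearing stromal cells gave 0 calls in edgeR (2 higher at an unadjusted p under 0.05, 0 in DESeq2 and limma-voom). Their summed level did not overlap between the groups, at 713 to 863 CPM with isotype and 1003 to 1135 CPM with anti-CSF1R. The sum of the RANKL inducers and their receptors, described below, did not overlap either (3663 to 4213 against 4491 to 4939 CPM). Pdgfrb and Pdgfra, mesenchymal growth factor receptors, had the highest CPM of the stromal list. For these edgeR gave 0.26 in log2 (adjusted p = 0.309) for the former and 0.52 (adjusted p = 0.290) for the latter. The latter was 0.12 against isotype 2 and 5 alone. With isotype 2 and 5 only, edgeR called 2 of the 8 higher, Pdgfrb and Cxcl12 (named after its value was seen), a chemokine of marrow stroma. Chondrocyte markers summed to 426 to 2820 CPM with isotype and to 161 to 449 CPM with anti-CSF1R, ranges that overlapped, with 0 of 8 called by edgeR (3 lower and 1 higher at an unadjusted p under 0.05; 3 lower in DESeq2 and 0 in limma-voom). Their cartilage genes Col2a1 (log2 fold change -2.98, edgeR adjusted p = 0.199) and Acan (-1.53, edgeR adjusted p = 0.212) had the highest CPM of the list, and Col2a1 spanned 210.3 to 1951 CPM in isotype. The list held both signs: Col10a1, the collagen of hypertrophic cartilage, stood at 45.4 ± 23.1 and 75.3 ± 12.1 CPM (log2 fold change 0.73, edgeR adjusted p = 0.278; 0.27 against isotype 2 and 5 alone), and Ihh, a hedgehog ligand of prehypertrophic chondrocytes, at 10.5 ± 3.03 and 13.0 ± 1.52 CPM (0.31, edgeR adjusted p = 0.339). Col10a1 and Ihh were named after their values were seen.

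Lymphocytes are the other known source, and the markers of T and innate lymphoid cells gave little RNA here. Of 8 T and innate lymphoid markers only 5 were tested (Cd3d, Cd3e and Cd3g, subunits of the T cell receptor complex, had at most 0.283 CPM in any library), and their sum was 6.85 to 12.7 CPM with isotype and 4.23 to 6.36 CPM with anti-CSF1R. Cd5, a T cell surface receptor, was the 1 marker of that list that passed (log2 fold change -2.40, edgeR adjusted p = 0.0318), and Il7r stood at 0.64 (edgeR adjusted p = 0.417). Cd5 ranged from 3.13 to 8.82 CPM with isotype and from 0.561 to 1.16 CPM with anti-CSF1R, above the Cd3 genes in every library. Which cells its RNA came from was not tested. Against isotype 2 and 5 alone, Cd5 stood at -1.72 and was called, and Il7r turned to -0.08 and was not. B cell markers had 0 of 8 called by edgeR (2 lower at an unadjusted p under 0.05, 0 in DESeq2 and limma-voom), with sums of 65.3 to 119 CPM and 60.4 to 102 CPM. Their leading genes Ighm (log2 fold change -0.16, edgeR adjusted p = 0.583) and Cd79a (-0.53, edgeR adjusted p = 0.296) encode parts of the B cell receptor, and they stood at -0.0054 and -0.14 against isotype 2 and 5 alone. The part of these cell types in the level of Tnfsf11 was not tested. In bulk RNA, a change in the number of cells of a type and a change in RNA per cell cannot be told apart, which holds for every gene below.

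The receptor went the opposite way. Tnfrsf11a stood at 25.1, 19.0, 19.7 and 27.4 CPM (isotype 2 to 5) against 9.58, 9.19, 10.01 and 5.12 CPM (anti-CSF1R 7 to 10). The groups did not overlap, and anti-CSF1R 10 was the lowest library. Tnfrsf11a fell 2.69-fold, from 22.8 ± 4.08 to 8.47 ± 2.26 CPM (SD, n = 4; log2 fold change -1.43 ± 0.24, SE, edgeR adjusted p = 0.0336). With isotype 2 and 5 only the log2 fold change was -1.63 (edgeR adjusted p = 0.0244), and the offset gave -1.58 (edgeR adjusted p = 0.00434). The call was lost without isotype 4 (edgeR adjusted p = 0.0697) and without any 1 of the anti-CSF1R libraries (0.0770 to 0.123). It was also lost with library size alone as scaling (-1.29, edgeR adjusted p = 0.0980) and with the muscle covariate (-1.58, edgeR adjusted p = 0.158). The direction held in all 18 alternatives.

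Markers of cells that carry RANK were for the most part lower as well. Macrophage markers had 8 of 12 members called lower by edgeR, with a median log2 fold change of -2.06 against 0.03 over all genes. Their summed level was 578 to 1010 CPM with isotype and 222 to 278 CPM with anti-CSF1R. Mertk and Cd163 of that list, named after their values were seen, went the other way, each at 0.54 in log2 and not called. Against isotype 2 and 5 alone they stood at 0.08 and 0.06. Cd68, a lysosomal protein of macrophages and osteoclasts, fell to 31.4 ± 7.47 CPM from 137 ± 57.2 CPM (-2.13 in log2, edgeR adjusted p = 0.0266), with -1.56 against isotype 2 and 5 alone. Osteoclast genes are described with Nfatc1 below, and their summed level was 6331 to 14397 CPM with isotype and 2522 to 3366 CPM with anti-CSF1R. Within isotype, the macrophage and osteoclast sums were highest in isotype 3 and 4, where Tnfrsf11a was lowest in uncorrected CPM. After correction for GC content and length, Tnfrsf11a stood at 23.5, 24.3, 21.6 and 26.4 CPM (isotype 2 to 5), with isotype 3 above isotype 2. The sums were not corrected in this way. No marker of these 2 lists was at 0 throughout, and the part of cell number in the level of Tnfrsf11a was not tested.

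The decoy receptor and Lgr4 did not pass. Tnfrsf11b stood at 19.9, 8.95, 5.02 and 17.7 CPM (isotype 2 to 5) against 20.05, 13.9, 13.2 and 20.8 CPM (anti-CSF1R 7 to 10). The groups overlapped, and isotype 2 and 5 lay inside the anti-CSF1R range. Its log2 fold change was 0.40 ± 0.40 (SE, edgeR adjusted p = 0.479) and turned to -0.15 with isotype 2 and 5 only (edgeR adjusted p = 0.810). Lgr4 stood at 91.6, 44.5, 32.4 and 98.2 CPM (isotype 2 to 5) against 103, 85.8, 106 and 93.5 CPM (anti-CSF1R 7 to 10). Again isotype 3 and 4 alone lay below the anti-CSF1R range. Its log2 fold change was 0.54 ± 0.33 (SE, edgeR adjusted p = 0.315) on all libraries and 0.03 with isotype 2 and 5 only (edgeR adjusted p = 0.930).

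The balance of ligand to decoy and of ligand to receptor was taken per transcript length within each library and is a description without a test. RANKL to OPG stood at 1.27, 1.21, 1.65 and 1.63 in isotype 2 to 5 and at 2.52, 5.01, 6.21 and 3.92 in anti-CSF1R 7 to 10. Isotype 3 and 4, which stood apart gene by gene, lay beside isotype 2 and 5 in this ratio. The mean log2 ratio was 0.51 ± 0.23 and 2.07 ± 0.56 (SD, n = 4), a 2.93-fold difference. RANKL to RANK stood at 1.80, 1.02, 0.749 and 1.88 in isotype 2 to 5 and at 9.41, 13.5, 14.6 and 28.4 in anti-CSF1R 7 to 10. The groups were apart in both ratios, and the difference in log2 was 1.54 for RANKL to OPG and 3.04 for RANKL to RANK with isotype 2 and 5 only. The mean log2 RANKL to RANK ratio was 0.34 ± 0.65 with isotype and 3.92 ± 0.66 with anti-CSF1R (SD, n = 4), an 11.9-fold difference.

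**Figure D2:**
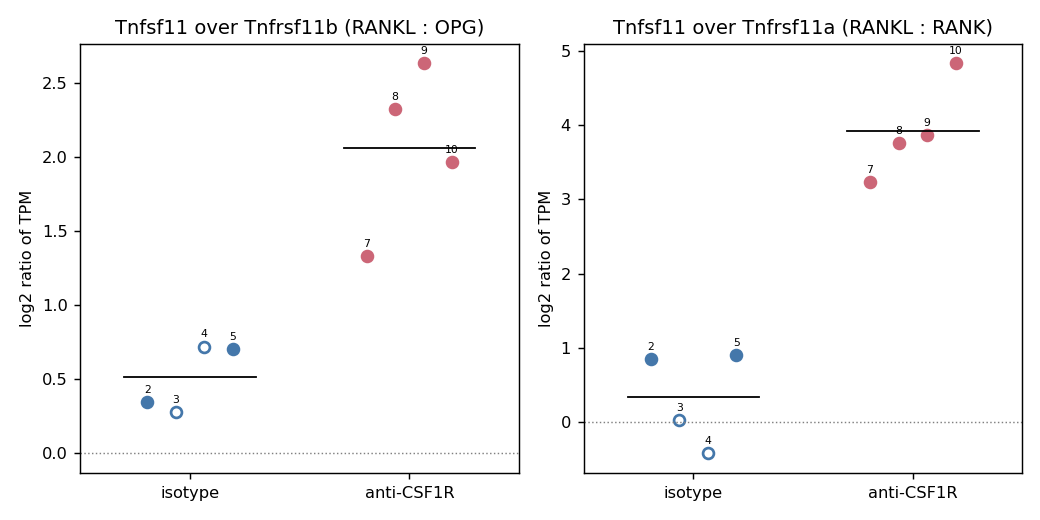
Log2 of the RANKL to OPG ratio (left) and of the RANKL to RANK ratio (right) per transcript length in each library, by group, with library numbers, group means as lines and isotype 3 and 4 as open circles. The log2 RANKL to OPG ratio lies between 0.28 and 0.72 in isotype and between 1.33 and 2.64 in anti-CSF1R, and that of RANKL to RANK between -0.42 and 0.91 and between 3.23 and 4.83.

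The adaptor and the NF-kB subunits were not called on all libraries. Traf6, the adaptor, stood at 38.1, 18.2, 19.5 and 32.0 CPM (isotype 2 to 5) against 31.9, 30.3, 33.0 and 32.8 CPM (anti-CSF1R 7 to 10). The anti-CSF1R values were close together and lay inside the isotype range. Its log2 fold change was 0.25 ± 0.24 (SE, edgeR adjusted p = 0.466) and turned to -0.13 for isotype 2 and 5 alone (edgeR adjusted p = 0.488) and to -0.07 under the offset (edgeR adjusted p = 0.635).

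Nfkb2, the precursor of the alternative NF-kB subunit, stood at 39.9, 71.8, 54.7 and 40.1 CPM (isotype 2 to 5) against 33.0, 34.2, 32.1 and 32.8 CPM (anti-CSF1R 7 to 10). The groups did not overlap, and the highest values were those of isotype 3 and 4. Its log2 fold change was -0.64 ± 0.20 (SE, edgeR adjusted p = 0.238) on all libraries. Nfkb2 fell in the fit with isotype 2 and 5 only, by a smaller amount (-0.28 ± 0.06, edgeR adjusted p = 0.0310), and did not pass under the offset (-0.28, edgeR adjusted p = 0.189). Relb, its partner, stood at 17.2, 28.1, 23.0 and 20.9 CPM (isotype 2 to 5) against 19.7, 18.4, 17.2 and 20.7 CPM (anti-CSF1R 7 to 10). The groups overlapped. Its log2 fold change was -0.23 ± 0.17 (SE, edgeR adjusted p = 0.358), with -0.0095 for isotype 2 and 5 only and 0.12 under the offset (edgeR adjusted p = 0.541).

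Fos, the AP-1 subunit that osteoclast formation needs, differed in spread rather than in a shared direction. It stood at 25.6, 30.2, 29.9 and 28.7 CPM (isotype 2 to 5) against 122, 17.4, 66.2 and 16.1 CPM (anti-CSF1R 7 to 10). Anti-CSF1R 7 and 9 lay above all isotype libraries, and 8 and 10 lay below them. The means were 28.6 ± 2.08 and 55.5 ± 50.2 CPM (SD, n = 4), with a log2 fold change of 0.96 ± 0.59 (SE, edgeR adjusted p = 0.312). For isotype 2 and 5 alone it was 1.03 (edgeR adjusted p = 0.757), and under the offset 1.22 (edgeR adjusted p = 0.248). Egr1, an immediate early gene that responds to stimulation within minutes, stood at 85.7, 102, 104 and 95.7 CPM (isotype 2 to 5) against 136, 69.5, 144 and 93.8 CPM (anti-CSF1R 7 to 10). Its highest libraries were again anti-CSF1R 7 and 9. Fosb, a close relative of Fos named after its values were seen, stood at 91.8 CPM in anti-CSF1R 7 and at 3.11 to 9.05 CPM in the other 7 libraries. Of the 12 immediate early genes listed, edgeR called 0 (0 at an unadjusted p under 0.05, 0 in DESeq2 and 0 in limma-voom), and Egr3 stood at 0.48 in log2 fold change (edgeR adjusted p = 0.299), or 0.10 against isotype 2 and 5 alone. Their summed level was 350.4, 455, 407 and 413 CPM (isotype 2 to 5) against 591, 320, 493 and 409 CPM (anti-CSF1R 7 to 10), highest in 7 and 9, and their part in the level of Fos was not tested.

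Among 9 other AP-1 genes, edgeR called 1, Fosl2 (Fra-2). It stood at 128, 118, 161 and 127 CPM (isotype 2 to 5) against 72.8, 72.1, 73.8 and 75.2 CPM (anti-CSF1R 7 to 10). The groups did not overlap, and the 4 anti-CSF1R libraries were close together where those of Fos were spread. Fosl2 fell 1.81-fold (log2 fold change -0.86 ± 0.14, SE, edgeR adjusted p = 0.0307), and it was the 1 AP-1 gene called also under the offset and with isotype 2 and 5 only. The median log2 fold change of the 9 was -0.25.

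**Figure D3:**
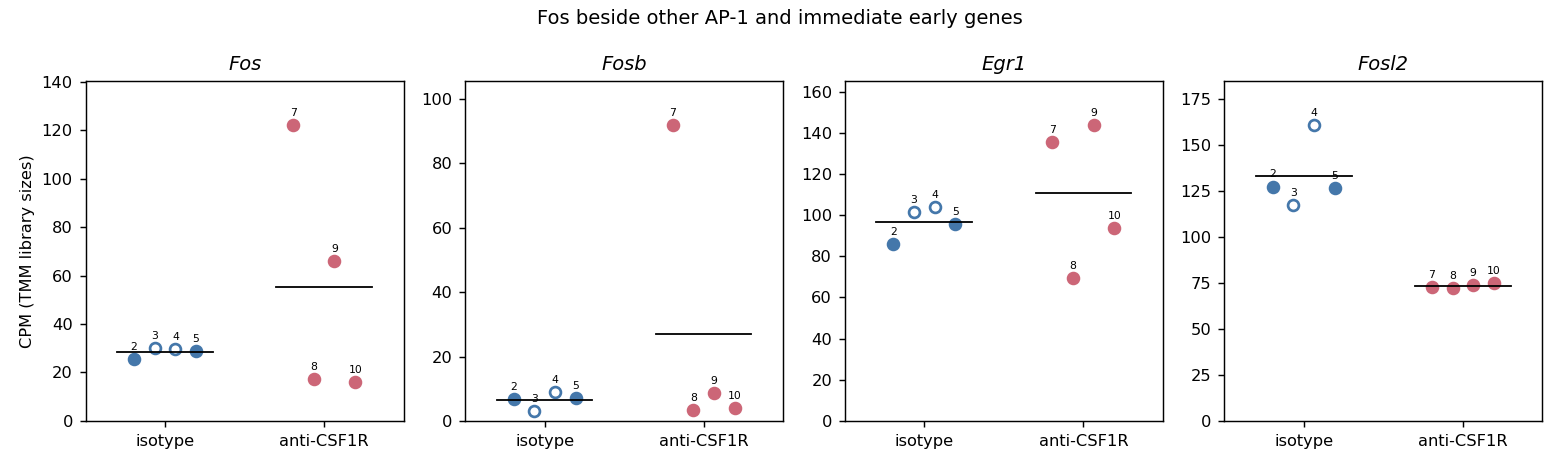
CPM (TMM library sizes) of Fos, Fosb, Egr1 and Fosl2 in each library, by group, with library numbers, group means as lines and isotype 3 and 4 as open circles. Fos and Egr1 are highest in anti-CSF1R 7 and 9, Fosb in anti-CSF1R 7, and Fosl2 at 72.1 to 75.2 CPM after anti-CSF1R lies below all isotype libraries.

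Nfatc1 fell, with little spread in either group. It stood at 142, 167, 175 and 164 CPM (isotype 2 to 5) against 89.3, 78.1, 91.3 and 84.9 CPM (anti-CSF1R 7 to 10). The groups did not overlap, and isotype 3 and 4 lay near isotype 5. The mean was 1.88-fold lower, from 162 ± 14.0 to 85.9 ± 5.87 CPM (SD, n = 4; log2 fold change -0.91 ± 0.13, SE, edgeR adjusted p = 0.0231). With isotype 2 and 5 only the log2 fold change was -0.84, and the offset gave -0.75 (edgeR adjusted p = 0.00501). The call was lost without isotype 4 (edgeR adjusted p = 0.0697) and without any 1 of the anti-CSF1R libraries (0.0996 to 0.117). It was also lost with the muscle covariate (log2 fold change -0.96, edgeR adjusted p = 0.126).

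Prdm1, the repressor that NFATc1 induces, stood at 24.5, 12.9, 14.4 and 27.2 CPM (isotype 2 to 5) against 10.9, 10.1, 9.29 and 10.5 CPM (anti-CSF1R 7 to 10). In CPM all isotype libraries were higher, with isotype 3 and 4 nearest to the anti-CSF1R values. Per transcript length and rescaled to the same total in each library (TPM), the groups overlapped. Isotype 3 at 5.57 TPM then lay below the anti-CSF1R range of 6.01 to 6.93 TPM. The means were 19.7 ± 7.15 and 10.2 ± 0.705 CPM (SD, n = 4), and the log2 fold change of -0.95 ± 0.25 (SE) did not pass on all libraries (edgeR adjusted p = 0.156). Prdm1 fell in the fit with isotype 2 and 5 only (-1.34 ± 0.09, edgeR adjusted p = 1.81e-04), where its mean was 2.53-fold lower, as well as under the offset (-1.19, edgeR adjusted p = 0.00266). It also passed in DESeq2 (adjusted p = 0.00744). The summed macrophage and osteoclast markers given above were also lower in the anti-CSF1R group than in the isotype group. Within isotype these sums ran the other way from Prdm1, with 578, 1010, 803 and 612 CPM for macrophage markers (isotype 2 to 5). The osteoclast sums there were 6331, 14397, 11109 and 6737 CPM. Single markers went both ways: Cd68 and Ctsk were higher in isotype 3 and 4 than in isotype 2 and 5. Mrc1 and Atp6v0d2, named after their values were seen, were lower there, as Prdm1 was. Isotype 3 and 4 are also the libraries in which GC-rich transcripts stood high. After correction for GC content and length, Prdm1 stood at 21.9, 18.5, 18.3 and 25.3 CPM (isotype 2 to 5). The part of macrophages and osteoclasts in the level of Prdm1 or Nfatc1 was not tested.

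**Figure D4:**
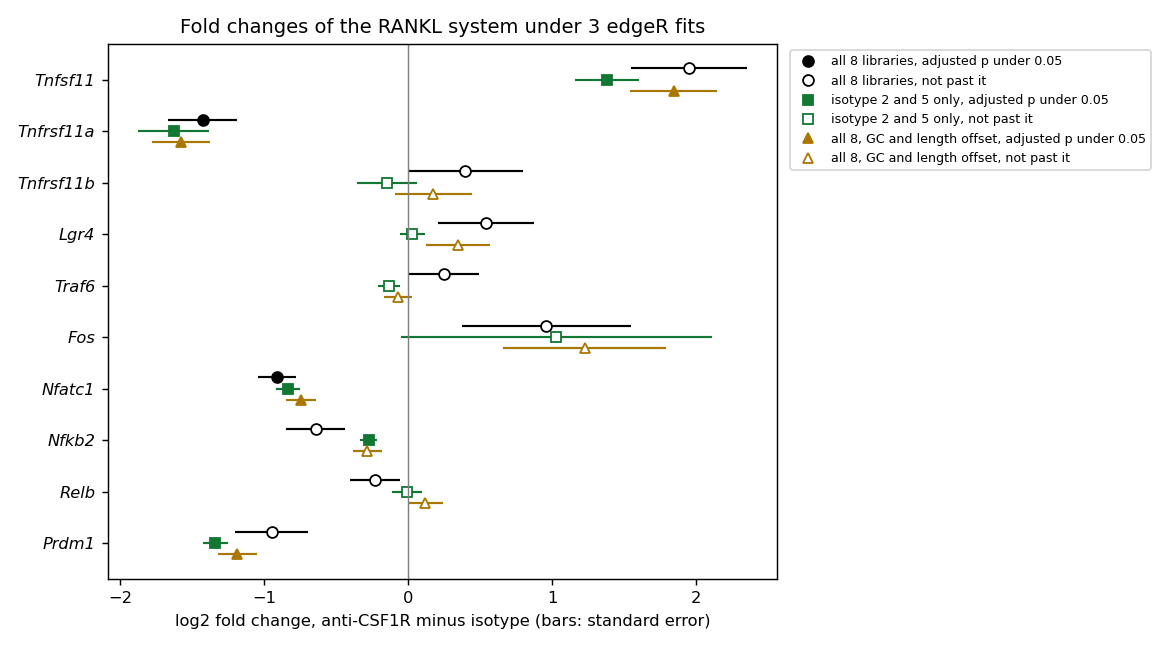
Log2 fold change (anti-CSF1R minus isotype) with its SE for the 10 genes in 3 fits: all 8 libraries, isotype 2 and 5 only, and the GC and length offset, with calls at an edgeR adjusted p under 0.05 filled. Tnfrsf11a and Nfatc1 are called in every one of the 3 fits, Tnfsf11 and Prdm1 in the latter 2, and Nfkb2 with isotype 2 and 5 only.

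Per length, as TPM (CPM divided by transcript length and rescaled to the same total in each library), Nfatc1 led the isotype libraries at 97.6 ± 15.4 TPM (SD, n = 4), with no overlap with the next gene. Then came Lgr4 (40.4 ± 25.3 TPM), Fos (39.2 ± 5.62), Nfkb2 (37.6 ± 4.13), Tnfsf11 (20.1 ± 13.8), Relb (19.4 ± 2.04), Tnfrsf11b (14.0 ± 9.27), Tnfrsf11a (13.5 ± 4.59), Traf6 (13.2 ± 6.49) and Prdm1 (11.4 ± 5.76), each overlapping its neighbour. In the anti-CSF1R libraries the order was Fos (89.0 ± 79.4 TPM), Tnfsf11 (85.8 ± 18.2), Lgr4 (65.3 ± 5.42) and Nfatc1 (61.1 ± 3.50), neighbours that overlapped. Nfkb2 (29.3 ± 1.13 TPM) came next, with no overlap with its neighbours Nfatc1 and Tnfrsf11b. Its range of 28.5 to 31.0 TPM lay inside that of Fos (26.1 to 194 TPM), which was below Nfkb2 in anti-CSF1R 8 and 10. Lower in the order were Tnfrsf11b (20.5 ± 4.60), Relb (19.8 ± 1.51) and Traf6 (17.7 ± 0.580 TPM). Prdm1 (6.60 ± 0.408 TPM) and Tnfrsf11a (5.75 ± 1.54 TPM) closed the order, below Traf6 without overlap. In the order of means, the ligand moved from place 5 to place 2, and its receptor stood last after anti-CSF1R. There the receptor overlapped Prdm1, at 3.46 to 6.80 against 6.01 to 6.93 TPM. The ligand's place in isotype averaged unlike libraries, at 28.8, 8.82, 8.02 and 34.9 TPM (isotype 2 to 5).

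Genes that act before and after these 10 were read from further lists. Of 21 tested RANKL inducers and their receptors, edgeR called 0 (2 lower and 6 higher at an unadjusted p under 0.05), DESeq2 called 2 higher and limma-voom 0, with a median log2 fold change of 0.41 on all libraries and 0.14 with isotype 2 and 5 only. Vdr, the receptor through which vitamin D raises RANKL, stood at 678 ± 55.8 and 999 ± 94.1 CPM (log2 fold change 0.56, edgeR adjusted p = 0.151) and rose with isotype 2 and 5 only (0.47, edgeR adjusted p = 0.0366). The DESeq2 pair was Vdr and the cytokine Il1b, the latter named after its value was seen. Ctnnb1 (beta-catenin) stood at 0.44 in log2 fold change (edgeR adjusted p = 0.285), or 0.18 against isotype 2 and 5 alone.

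Of 24 RANK adaptor and NF-kB genes, edgeR called 0 (6 lower and 0 higher at an unadjusted p under 0.05), DESeq2 2 lower and limma-voom 0. The median log2 fold change was -0.06. Sqstm1 (p62), a scaffold of TRAF6 signalling, stood at -0.64 (edgeR adjusted p = 0.278), and Tab2, an adaptor of the kinase TAK1, at 0.39 (edgeR adjusted p = 0.372). Against isotype 2 and 5 alone, Sqstm1 stood at -0.14 and Tab2 turned to -0.09, neither of them called. Nfkbia, the NF-kB inhibitor and 1 of the DESeq2 pair with Traf1, stood at 72.8 ± 22.9 and 42.2 ± 1.76 CPM (log2 fold change -0.79, edgeR adjusted p = 0.177) and fell with isotype 2 and 5 only (-0.35, edgeR adjusted p = 0.0218). Nfkbia and Traf1 were named after their values were seen.

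Among 16 calcium, calcineurin and NFAT genes edgeR called 0 (2 lower and 2 higher at an unadjusted p under 0.05), DESeq2 1 lower and 1 higher, and limma-voom 0. The median of 0.42 on all libraries was 0.0077 with isotype 2 and 5 only. Plcg1, which releases calcium (log2 fold change -0.03, edgeR adjusted p = 0.893), and Ppp3ca, a catalytic subunit of calcineurin (0.57, edgeR adjusted p = 0.324), had the highest CPM. Ppp3ca stood at 0.0042 and Plcg1 turned to 0.07 against isotype 2 and 5 alone, neither of them called. Rcan1, a calcineurin regulator and NFAT target named after its values were seen, stood at 41.3, 94.1, 72.3 and 41.6 CPM (isotype 2 to 5) against 31.3, 28.0, 27.2 and 28.4 CPM (anti-CSF1R 7 to 10). The groups did not overlap, and isotype 3 and 4 were highest. Its log2 fold change was -1.12 (edgeR adjusted p = 0.117) on all libraries, and it fell for isotype 2 and 5 alone (-0.53, edgeR adjusted p = 0.00302) and under the offset (-0.68, edgeR adjusted p = 0.0171).

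Of 16 partners and repressors of osteoclast transcription, edgeR called 1 lower and 0 higher. This was Spi1 (PU.1), the factor that sets the myeloid lineage and acts on the RANK gene, at 39.3, 105, 73.9 and 42.6 CPM (isotype 2 to 5) against 16.8, 16.7, 17.8 and 10.4 CPM (anti-CSF1R 7 to 10). The groups did not overlap, and like Tnfrsf11a it was lowest in anti-CSF1R 10. Spi1 fell 4.22-fold (log2 fold change -2.08 ± 0.34, SE, edgeR adjusted p = 0.0318), with -1.41 for isotype 2 and 5 only (edgeR adjusted p = 0.0207). With isotype 2 and 5 only edgeR called 5 of the 16 lower, adding Tfec, Mitf, Ppargc1b and Esrra, which were named after their values were seen.

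The list of NFATc1 targets and osteoclast genes, chosen with results of these samples known and so not independent evidence of its direction, had 7 of 14 members called lower and 0 higher. The median log2 fold change was -1.66 against 0.03 over all genes, and it was -1.38 with isotype 2 and 5 only, where 12 of 14 were called lower. Car2 and Itgav of that list, named after their values were seen, did not fall on all libraries. They stood at 0.02 and 0.19 in log2, neither of them called. Against isotype 2 and 5 alone, Car2 stood at 0.14 and was not called, and Itgav at -0.31 and was called lower. Oscar, a costimulatory receptor, fell 6.14-fold (log2 fold change -2.62, edgeR adjusted p = 0.00584). Siglec15, a sialic acid receptor of osteoclasts, fell 3.09-fold (-1.63, edgeR adjusted p = 0.0156). Both have roles in osteoclast maturation. Ctsk, the collagen-degrading protease, fell from 2584 ± 705 to 797 ± 119 CPM (-1.70, edgeR adjusted p = 0.0198), and Ocstamp, needed for cell fusion, from 36.0 ± 19.3 to 6.41 ± 1.38 CPM (-2.49, edgeR adjusted p = 0.0267). Against isotype 2 and 5 alone Oscar stood at -2.36, Siglec15 at -1.59, Ctsk at -1.31 and Ocstamp at -1.69, and all 4 were called. Over the 18 alternatives the highest adjusted p was 0.0699 for Oscar, 0.0812 for Siglec15, 0.139 for Ctsk, 0.174 for Ocstamp, 0.138 for Fosl2 and 0.210 for Spi1. For the markers Csf1r, Cd68 and Cd5 it was 0.111, 0.174 and 0.204. Each of these calls was thus lost in at least 1 alternative.

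**Figure D5:**
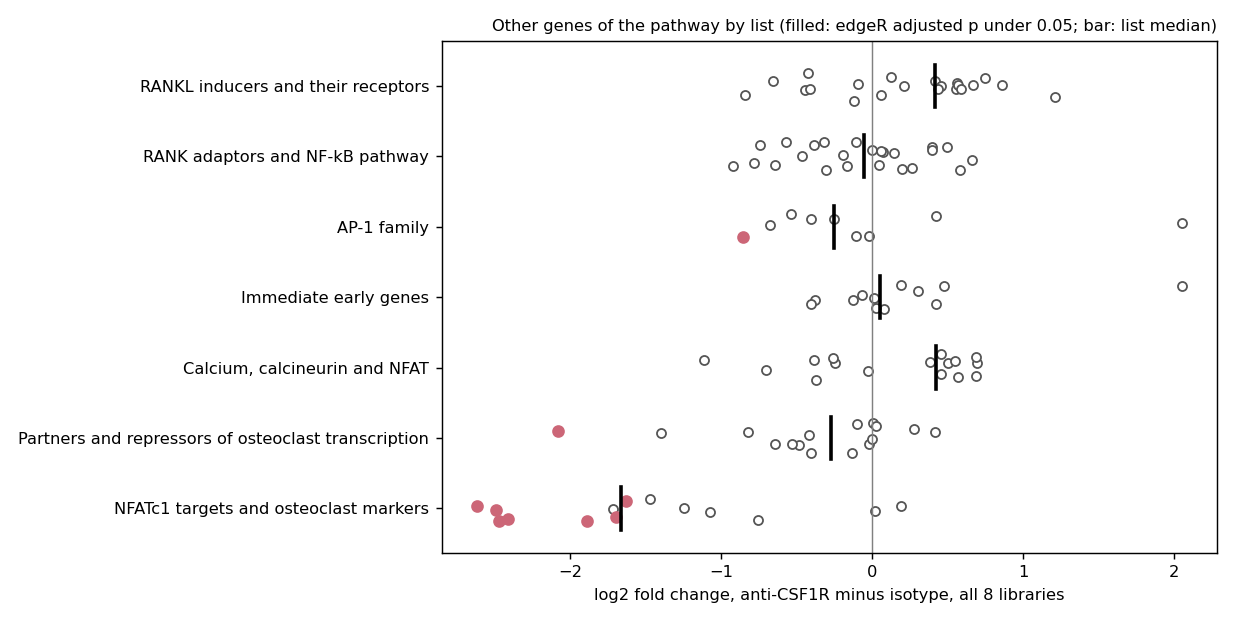
Log2 fold change (anti-CSF1R minus isotype) of each tested gene in the pathway lists on all 8 libraries, with calls at an edgeR adjusted p under 0.05 marked and list medians as lines. The calls lie in the lists of osteoclast genes (7 of 14), partners and repressors (Spi1) and AP-1 (Fosl2).

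The remaining cell types were read as a background. Osteoblast markers had 0 of 12 called by edgeR (3 lower and 1 higher at an unadjusted p under 0.05, 0 in DESeq2 and limma-voom), with a median log2 fold change of -0.36 on all libraries and 0.05 with isotype 2 and 5 only. Endothelial markers had 0 of 8 called by edgeR (3 higher at an unadjusted p under 0.05, 0 in DESeq2 and limma-voom), with Cdh5 at 0.24 (edgeR adjusted p = 0.287) and Pecam1 at 0.17 (edgeR adjusted p = 0.364). Cdh5 and Pecam1 did not overlap between the groups, and neither did Kdr, Tek and Emcn, named after their values were seen. Of all genes tested, 6.61% were likewise higher without overlap. Kdr, Tek and Emcn had log2 fold changes of 0.62, 0.85 and 0.77 on all libraries. Of these, Emcn was called higher with isotype 2 and 5 only (0.34, edgeR adjusted p = 0.0269). Skeletal muscle genes had 0 of 9 tested called by edgeR (6 lower at an unadjusted p under 0.05, 5 lower in DESeq2, 0 in limma-voom). Their summed level was 35.0 and 83.5 CPM in isotype 2 and 3 and 8.91 to 10.5 CPM in the other 6 libraries, so those 2 isotype libraries carried more muscle RNA. Acta1 reached 22.8 CPM in isotype 3, and Actn3 ranged from 2.36 to 7.33 CPM over all libraries. The part of muscle RNA in the members' levels was not tested beyond the fit with that covariate.

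The genes whose pattern over the 8 libraries lay nearest to that of Tnfsf11, among 13200 genes by the root mean square difference of centred log2 CPM, were Frem1 (0.165), Cyp1b1 (0.314) and Kctd12 (0.371). None of the 3 passed on all libraries, the log2 fold changes being 1.80, 1.58 and 1.22 in that order (adjusted p in edgeR of 0.114, 0.0883 and 0.263). Against isotype 2 and 5 alone they stood at 1.22, 1.08 and 0.61, where Cyp1b1 (edgeR adjusted p = 0.0123) and Kctd12 (edgeR adjusted p = 0.00473) passed, and under the offset Frem1 (edgeR adjusted p = 0.0299) and Cyp1b1 (edgeR adjusted p = 0.0182) passed. Nearest to Tnfrsf11a were C3ar1 (0.165), Shtn1 (0.176) and Esyt3 (0.193). Of these, Shtn1 fell to 12.5 ± 2.23 CPM from 30.0 ± 7.06 CPM (-1.27 in log2, edgeR adjusted p = 0.0373) and Esyt3 fell from 8.28 ± 2.09 to 3.06 ± 0.773 CPM (-1.44, edgeR adjusted p = 0.0487). C3ar1, the receptor of the complement fragment C3a, stood at -1.42 (edgeR adjusted p = 0.0757). All 3 passed against isotype 2 and 5 alone, at -1.67 for C3ar1, -1.52 for Shtn1 and -1.64 for Esyt3, and under the offset. These genes were found by likeness alone.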

How the data were processed

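Poly(A) RNA of 8 parietal bone libraries was made with a TruSeq Stranded mRNA kit and read as pairs of 101 bp, per the labels' protocols. The values are raw counts per gene symbol, which the authors deposited as 1 table. STAR 2.7.10b, featureCounts 1.6.3 and the builds GRCm38 and GRCm39 stand in the submitters' processing notes. No strand setting or annotation is given in the sources used here, and reads of overlapping and antisense genes cannot be told apart.

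The table was fitted with edgeR 4.0.16 in R 4.3.3 (filterByExpr, TMM, robust quasi-likelihood F-test, Benjamini-Hochberg over 17028 genes, threshold 0.05). Sensitivity fits used DESeq2 1.42.0, limma-voom 3.58.1, RLE factors, library size alone, other filters, a muscle covariate, halved counts, isotype 2 and 5 only, an offset of GC content and length (natural splines, 5 degrees of freedom, longest GENCODE M21 transcript, found for 94.0% of tested genes) and each library left out. In both groups, pairs of libraries differed by at least 3.99 times counting noise over 8632 genes, which shows only that none is a duplicate file, not that each is a separate pup. Named were all members; per pathway list up to 4 genes with the smallest p among those called, else the 2 with the highest CPM; per marker list the 2 with the highest CPM; and the 3 genes nearest to Tnfsf11 and Tnfrsf11a (mean log2 CPM of at least 1). Ratios were taken per length in place of CPM, which leaves the log2 difference between groups as it is. The members and lists were chosen with earlier results of these data known.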

Additional observations from a re-analysis of the deposited data

Results flagged for a closer look

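The value of Tnfrsf11a in anti-CSF1R 10, 5.12 CPM, lay far below the other 3 libraries of its group, which stood at 9.58, 9.19 and 10.01 CPM. The gap to its nearest neighbour took 0.833 of the group's whole range. Of 20 groups examined in this way (10 genes in each of the 2 groups), chance alone marks about 1 in 20.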

How the results depend on the processing

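Members called lower, 2 on all libraries in edgeR, numbered 1 with library size alone as scaling, 4 with isotype 2 and 5 only, 0 with the muscle covariate and 0 to 2 when each library was left out. Members called higher, 0 in edgeR on all libraries, numbered 1 in each of DESeq2, limma-voom, isotype 2 and 5 only and the GC and length offset, and 0 to 1 when each library was left out (1 without isotype 5). Library size alone moved the median log2 fold change of all genes to 0.19. Genes called, 144 in edgeR on all libraries, numbered 777 in DESeq2, 536 with isotype 2 and 5 only (133 shared with the 144), 376 with the offset (131 shared), 0 with the muscle covariate (966 at an unadjusted p under 0.05) and 0 to 260 when each library was left out. The 0 came without anti-CSF1R 7 or 8 (1903 and 1597 genes at an unadjusted p under 0.05), and the count was 4 without anti-CSF1R 9, 14 without 10 and 35 without isotype 4. The sign turned for Tnfrsf11b (-0.15) and Traf6 (-0.13) with isotype 2 and 5 only, and for Traf6 (-0.074) and Relb (0.12) with the offset, none of them called in any fit. Reducing the isotype group to 2 and 5, and the offset, were chosen after isotype 3 and 4 were seen to stand apart. The RANKL to OPG ratio differed by 1.36 to 1.80 in log2, and the RANKL to RANK ratio by 3.27 to 3.81, when each library was left out. No paired analysis was possible because the groups share no library numbers. Counting both mates makes the counting noise larger than the totals imply, and 4 libraries a group limit what a call of a single gene can rest on.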
